A study of Mus musculus with 15 samples.

Results

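The 7 genes described here handle bile acids in the intestinal epithelium: Slc10a2, Fabp6, Slc51a, Slc51b, Nr1h4, Nr0b2 and Fgf15. They were taken by symbol from the 78298 genes counted in each library, whatever their level, and 6 of the 7 passed the filter on low counts and were tested. Poly-A RNA was sequenced from organoids, which are epithelial cultures grown in Matrigel from small intestinal crypts of adult female wild-type mice of the C57BL/6J strain. The 5 conditions had 3 libraries each, and every line carried a lentiviral transgene driven by the weak, ubiquitous L30 promoter and had been selected with an antibiotic. Halo-NLS organoids, the control, expressed the HaloTag with a nuclear localization signal. SOX9-mEGFP_budding and SOX9-Halo_budding organoids expressed the transcription factor SOX9 fused to a fluorescent protein or to the HaloTag and had the usual budding shape. SOX9-mEGFP_spheroid and SOX9-Halo_spheroid were organoids with the same fusions that had been kept longer in culture and were round. The spheroids also carried a second lentiviral transgene, histone H2B fused to mScarletI in the SOX9-mEGFP_spheroid line and to mEGFP in the SOX9-Halo_spheroid line. Halo-NLS and budding organoids lacked this transgene, so that round shape, second transgene and time in culture cannot be told apart. According to the study, SOX9-Halo_spheroid also followed SOX9-mEGFP_spheroid in time in culture and in progression of the round morphology. Line, second transgene and time in culture therefore cannot be told apart between the spheroids either. The study orders all 5 conditions by time in culture, with Halo-NLS first, then SOX9-mEGFP_budding and SOX9-Halo_budding. SOX9 fusion and time in culture thus cannot be told apart between budding organoids and Halo-NLS. The same holds for line and time in culture between the budding conditions. The 3 libraries of a condition are described as biological replicates. According to the study, each condition was a stable organoid line collected at or near a given passage. The sources used here do not say whether the libraries came from separate mice. The p-values therefore measure the spread between these samples and not between independently made lines.

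Bile acids are made from cholesterol in the liver, reach the gut lumen with bile and are mostly taken back up by enterocytes of the ileum, the distal part of the small intestine. Slc10a2 (the transporter ASBT) carries them across the apical membrane, Fabp6 (the ileal bile acid binding protein) binds them in the cytosol, and Slc51a and Slc51b form the heteromer OSTα-OSTβ that releases them across the basolateral membrane. Inside the cell they activate the nuclear receptor FXR, encoded by Nr1h4, whose known targets are Fabp6, Slc51a, Slc51b, the corepressor gene Nr0b2 (SHP) and Fgf15, an endocrine growth factor that represses bile acid synthesis in the liver.

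Between 28062722 and 40559766 reads per library were counted on genes (median 33491297). Levels are given as CPM, counts scaled to library size after correction with the trimmed mean of M-values (TMM). A count of 0 allows up to 3 counts at this depth, a floor that covers counting error only. Sox9, counted together from the endogenous gene and the transgenes, had 9.10 to 22.9 CPM in Halo-NLS organoids and 193.3 to 704.9 CPM in all libraries with a SOX9 fusion except SOX9-Halo_budding library 1, which had 39.8 CPM. The 6 epithelial markers summed to 4790 to 10206 CPM in the 15 libraries. The 6 stromal, 6 immune and 4 endothelial markers each summed to at most 3.95 CPM, with the defining genes Col3a1, Ptprc, Cdh5 and Kdr at 0.212 CPM or less as condition means. Their most abundant genes were Pdgfrb (1.40 CPM in Halo-NLS), Itgam (at most 2.84 CPM as a condition mean), Pecam1 (0.571 CPM in Halo-NLS) and Cd74 (1.56 CPM in SOX9-mEGFP_spheroid, called higher than in Halo-NLS). Hepatocyte markers summed to at most 1.80 CPM. In contrast, the 11 enterocyte markers summed to 2214 to 9522 CPM in Halo-NLS and budding libraries and 642.0 to 1032 CPM in spheroid libraries. This sum is not alike in composition, since Anpep, an aminopeptidase, alone had 634.4 CPM in SOX9-Halo_spheroid and 503.1 CPM in Halo-NLS. Without Anpep, left out after its values were seen, the other 10 summed to 7341 ± 2301 CPM in Halo-NLS (SD, n = 3), 633.7 ± 269 CPM in SOX9-mEGFP_spheroid and 43.5 ± 2.5 CPM in SOX9-Halo_spheroid. In bulk RNA, fewer enterocytes and less RNA per enterocyte cannot be told apart, and the part of this difference in the results on bile acid genes was not tested.

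In the spheroids of both lines the basolateral exporter and FXR transcripts were low, whereas the apical transporter Slc10a2 was high in SOX9-mEGFP_spheroid and close to absent in SOX9-Halo_spheroid. Differences were tested over 17560 genes with the quasi-likelihood test of edgeR, and p-values, unless another tool is named, come from it, adjusted by the Benjamini-Hochberg method. Genes were called where the adjusted p did not exceed 0.01, levels differed 2-fold or more, and the normalized count averaged 10 or more. In SOX9-Halo_spheroid against Halo-NLS, 4 of the 6 tested members were called, all lower, where 28.9% of all genes tested were called and 15.3% were called lower. In SOX9-mEGFP_spheroid against Halo-NLS, 3 were called lower and 1 higher, against 27.5% of all genes (12.1% lower and 15.3% higher). Relative to budding organoids with the same fusion, 4 fell in SOX9-Halo_spheroid (25.3% of all genes called, 14.7% lower), and 3 fell and 1 rose in SOX9-mEGFP_spheroid (16.4%, with 7.88% lower and 8.55% higher). No member was called in SOX9-Halo_budding against Halo-NLS (3.75% of all genes), in SOX9-mEGFP_budding against Halo-NLS (2.76%) or between both budding conditions (0.456%). Before adjustment, Nr0b2 in the first and Slc10a2 and Nr0b2 in the second passed 0.05 in edgeR, with 0 members in the third, and DESeq2 called 1, 0 and 0 members. Between the spheroids, SOX9-Halo_spheroid was lower in 2 members (13.2% of all genes called, 9.58% lower). The median log2 fold change over the 6 tested members was -3.13 in SOX9-Halo_spheroid and -2.07 in SOX9-mEGFP_spheroid against Halo-NLS, where the medians of all genes were -0.01 and 0.03. Slc51b, which had no count in SOX9-Halo_spheroid, stayed the lowest member at the smallest fall its counts allow. The former median was therefore -3.13 either way and is no test of the fitted value of Slc51b.

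**Figure D1:**
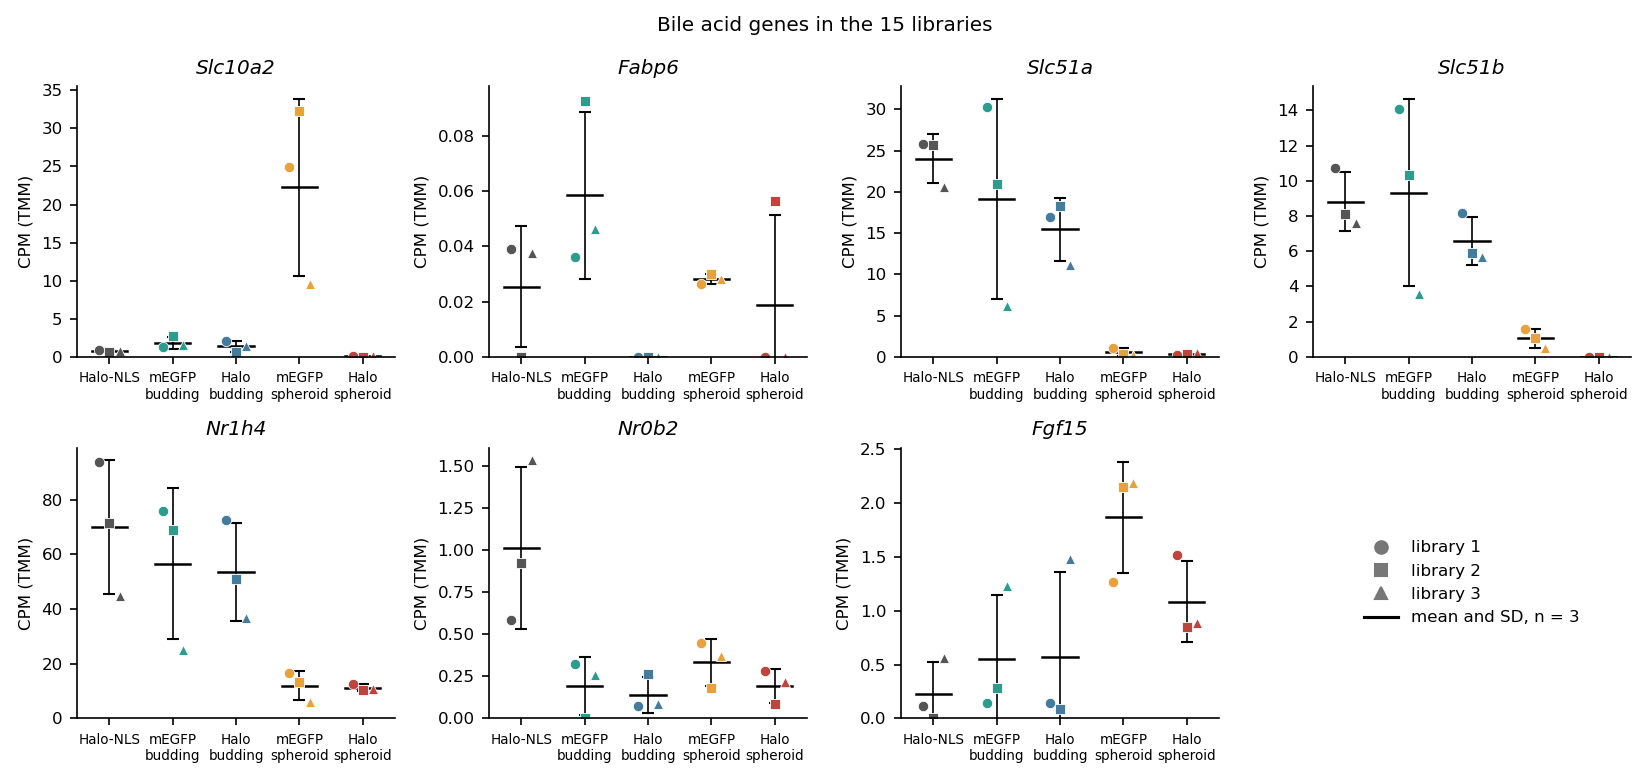
CPM (TMM-scaled) of the 7 genes in each of the 15 libraries, with linear axes from 0 that differ between panels; point shape gives the library number, and bars are the mean and SD of 3 libraries, cut at 0. Slc10a2 stood out in SOX9-mEGFP_spheroid (9.56 to 32.3 CPM), Slc51a, Slc51b and Nr1h4 were low in both spheroid conditions, and the Fabp6 panel rests on at most 3 counts per library.

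Promoter sequences were examined for the letters of transcription factor motifs known from this pathway, because several members were low in both spheroid conditions and Slc10a2 was high in one of them. The 250 bases before the start of the canonical transcript were read from GRCm39 for 21770 protein-coding genes, 5′ to 3′ on the strand of the gene, and searched on both strands. The FXR element IR1 (an inverted repeat of AGGTCA with 1 free base between, up to 2 mismatches) was found in 1.18% of these promoters, the nuclear receptor element DR1 (a direct repeat of AGGTCA with the same spacing and tolerance) in 2.91% and the HNF1 element (an inverted repeat of GTTAAT, likewise) in 1.17%. Short exact motifs were more frequent, with AGATAA for GATA factors in 9.60%, TTTATNG for CDX factors in 9.57% and AACAAT for SOX factors in 9.67%, while TCAAGGTCA for NR5A receptors was found in 0.432%. Of the members, 3 held any of them, and their promoters are printed because they carry every match, with matches in capitals.
Slc10a2: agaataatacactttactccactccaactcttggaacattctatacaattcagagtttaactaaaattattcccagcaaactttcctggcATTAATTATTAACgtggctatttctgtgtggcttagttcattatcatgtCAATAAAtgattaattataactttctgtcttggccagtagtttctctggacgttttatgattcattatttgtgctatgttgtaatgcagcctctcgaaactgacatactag
Nr1h4: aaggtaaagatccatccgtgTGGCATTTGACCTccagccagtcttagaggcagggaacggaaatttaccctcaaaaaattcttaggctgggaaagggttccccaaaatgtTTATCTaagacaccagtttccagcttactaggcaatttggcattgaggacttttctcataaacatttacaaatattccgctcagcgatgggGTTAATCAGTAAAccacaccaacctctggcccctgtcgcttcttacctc
Fabp6: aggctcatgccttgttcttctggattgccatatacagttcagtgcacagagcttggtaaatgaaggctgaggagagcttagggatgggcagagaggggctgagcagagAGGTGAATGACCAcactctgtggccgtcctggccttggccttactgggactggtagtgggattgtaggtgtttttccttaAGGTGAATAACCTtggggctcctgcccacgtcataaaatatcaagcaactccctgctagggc
The Slc10a2 promoter (chr8:5155352-5155601, minus strand) held an HNF1 match with 1 mismatch that started 160 bases before the transcript start, and a CDX match at 111 bases. The Nr1h4 promoter (chr10:89342512-89342761, minus strand) held a DR1 match at 230 bases, a GATA match at 140 and an HNF1 match at 49. This window, before the canonical transcript, lies within the annotated gene (chr10:89289742-89369497). Sequence before the outermost start of Nr1h4 was not searched. In the Fabp6 promoter (chr11:43492470-43492719, minus strand), IR1 matches with 2 mismatches each lay at 142 and 62 bases. The promoters of Slc51a, Slc51b, Nr0b2 and Fgf15 held none of these letters within this window, and SOX and NR5A matches were found in 0 of the 7. The Slc51b window (chr9:65330539-65330788, minus strand) partly overlaps the annotated gene (chr9:65319995-65330597). Its 250 bases before the outermost start were therefore searched only in part. A match describes letters and not a bound site.

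Slc10a2 (ENSMUSG00000023073, chr8:5133219-5155351, minus strand) is the apical sodium-dependent importer of bile acids. In Halo-NLS organoids it had 0.857, 0.615 and 0.824 CPM, from 22, 18 and 22 counts. SOX9-mEGFP_budding libraries had 1.27, 2.72 and 1.55 CPM and SOX9-Halo_budding libraries 2.09, 0.696 and 1.37 CPM. In SOX9-mEGFP_spheroid it had 25.0, 32.3 and 9.56 CPM, and in SOX9-Halo_spheroid only 2, 1 and 3 counts. The spheroid conditions lay at opposite ends, without overlap with any of the other conditions. In SOX9-mEGFP_spheroid Slc10a2 rose by a log2 fold change of 4.86 (SE 0.52, adjusted p = 4.1e-06) against Halo-NLS and by 3.59 (SE 0.48, adjusted p = 5.1e-05) against SOX9-mEGFP_budding. In SOX9-Halo_spheroid it fell by 3.60 against Halo-NLS (SE 0.69, adjusted p = 5.2e-04) and by 4.46 against SOX9-Halo_budding (SE 0.66, adjusted p = 5.7e-05). From the summed counts of 6 and 62, the ratio of Halo-NLS to SOX9-Halo_spheroid was 12.8 with an exact 95% counting interval from 5.56 to 36.2, and that of SOX9-mEGFP_spheroid to SOX9-Halo_spheroid was 373.6 (171.4 to 1019). Levels in the budding conditions were not distinguished from each other (log2 difference -0.41, 95% interval -1.39 to 0.57). All 3 SOX9-mEGFP_budding libraries lay above those of Halo-NLS, but the difference was not called (1.27, adjusted p = 0.083).

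Fabp6 (ENSMUSG00000020405, chr11:43486872-43492469, minus strand), the cytosolic carrier of bile acids, was at the limit of detection throughout. It had between 0 and 3 counts per library, 0 in 6 of the 15 libraries and 13 counts in all. SOX9-mEGFP_spheroid, where Slc10a2 was highest, had 1 count in each library. Fabp6 was therefore not tested, and no difference was detectable at this depth.

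Slc51a (ENSMUSG00000035699, chr16:32293322-32306842, minus strand) and Slc51b (ENSMUSG00000053862, chr9:65319995-65330597, minus strand) encode the α and β subunits of the basolateral exporter, which needs both. Slc51a had 25.7, 25.7 and 20.6 CPM in Halo-NLS, 30.3, 20.9 and 6.20 CPM in SOX9-mEGFP_budding and 17.0, 18.3 and 11.1 CPM in SOX9-Halo_budding. It had 1.08, 0.298 and 0.227 CPM in SOX9-mEGFP_spheroid and 0.212, 0.338 and 0.483 CPM in SOX9-Halo_spheroid. Every spheroid library was below every other library. Against Halo-NLS, Slc51a fell by 5.46 in SOX9-mEGFP_spheroid on the log2 scale (SE 0.64, adjusted p = 8.8e-06) and by 6.09 in SOX9-Halo_spheroid (SE 0.67, adjusted p = 2.8e-06). Against the budding organoids with the same fusion it fell by 5.13 in SOX9-mEGFP_spheroid (adjusted p = 2.2e-05) and fell by 5.45 in SOX9-Halo_spheroid (adjusted p = 7.5e-06). Without SOX9-mEGFP_spheroid library 1, the highest of its condition, the differences of SOX9-mEGFP_spheroid were -6.51 from Halo-NLS and -6.19 from SOX9-mEGFP_budding. The spheroids overlapped with each other, and their log2 difference of -0.63 had a 95% interval from -2.01 to 0.76.

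Slc51b had 10.7, 8.10 and 7.60 CPM in Halo-NLS, 14.1, 10.3 and 3.57 CPM in SOX9-mEGFP_budding and 8.16, 5.89 and 5.70 CPM in SOX9-Halo_budding. In SOX9-mEGFP_spheroid 1.59, 1.04 and 0.511 CPM were left, from 60, 35 and 18 counts, and in SOX9-Halo_spheroid all 3 libraries had 0 counts. Unlike those of the α subunit, β subunit levels of the spheroid conditions did not overlap. On the log2 scale, Slc51b fell by 3.07 in SOX9-mEGFP_spheroid against Halo-NLS (SE 0.50, adjusted p = 3.1e-04) and fell by 3.14 against SOX9-mEGFP_budding (SE 0.50, adjusted p = 3.8e-04). With the floor of 3 counts in each SOX9-Halo_spheroid library, it was there at least 97.7-fold lower than in Halo-NLS, at least 72.9-fold lower than in SOX9-Halo_budding and at least 11.6-fold lower than in SOX9-mEGFP_spheroid. These falls were called at adjusted p = 8.8e-07, 1.4e-06 and 1.2e-04.

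Nr1h4 (ENSMUSG00000047638, chr10:89289742-89369497, minus strand), encoding the bile acid receptor FXR, was the most abundant of the 7 genes in CPM in every condition except SOX9-mEGFP_spheroid. It had 93.9, 71.6 and 44.9 CPM in Halo-NLS, 76.0, 68.9 and 24.9 CPM in SOX9-mEGFP_budding and 72.6, 51.1 and 36.8 CPM in SOX9-Halo_budding. In SOX9-mEGFP_spheroid it had 16.6, 13.4 and 5.96 CPM, and in SOX9-Halo_spheroid 12.6, 10.2 and 10.7 CPM. All spheroid libraries lay below all others. Nr1h4 fell by 2.55 in SOX9-mEGFP_spheroid (SE 0.45, adjusted p = 3.5e-04) and by 2.65 in SOX9-Halo_spheroid (SE 0.45, adjusted p = 2.0e-04) on the log2 scale against Halo-NLS. Against the budding organoids with the same fusion the falls were 2.24 (adjusted p = 0.0013) and 2.26 (adjusted p = 7.5e-04). Spheroids of both lines were close, with a log2 difference of -0.10 and a 95% interval from -1.02 to 0.81.

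Nr0b2 (ENSMUSG00000037583, chr4:133280678-133283847, plus strand), whose product SHP is a corepressor without a DNA-binding domain, was low everywhere. It had 15, 27 and 41 counts in Halo-NLS (0.584, 0.923 and 1.54 CPM), 9, 0 and 11 in SOX9-mEGFP_budding, 3, 9 and 3 in SOX9-Halo_budding, 17, 6 and 13 in SOX9-mEGFP_spheroid and 8, 3 and 8 in SOX9-Halo_spheroid. All 3 Halo-NLS libraries lay above all 12 others, including those of budding organoids. The fitted log2 differences from Halo-NLS were -2.85 in SOX9-Halo_budding (adjusted p = 0.020), -2.39 in SOX9-Halo_spheroid (adjusted p = 0.013), -2.37 in SOX9-mEGFP_budding (adjusted p = 0.041) and -1.59 in SOX9-mEGFP_spheroid (adjusted p = 0.061), none of them called. These calls depended on the processing. Without the low-count filter, the first 3 were called (adjusted p = 1.3e-04, 6.2e-04 and 0.0021), and with DESeq2 the first 2 (adjusted p = 0.0021 and 0.0035).

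Fgf15 (ENSMUSG00000031073, chr7:144450268-144454690, plus strand), the hormone through which the ileum signals to the liver, was another member with few reads, beside Fabp6 and Nr0b2. It had 3, 0 and 15 counts in Halo-NLS, 4, 9 and 53 in SOX9-mEGFP_budding, 6, 3 and 51 in SOX9-Halo_budding, 48, 72 and 77 in SOX9-mEGFP_spheroid and 43, 30 and 33 in SOX9-Halo_spheroid. Library 3 was the highest in Halo-NLS and both budding conditions, and every spheroid library lay above all libraries 1 and 2 of the other conditions. The fitted log2 differences from Halo-NLS were 3.04 in SOX9-mEGFP_spheroid (95% interval 0.79 to 5.29, adjusted p = 0.027) and 2.25 in SOX9-Halo_spheroid (95% interval -0.03 to 4.53, adjusted p = 0.095), and neither was called. Leaving out all libraries numbered 3 was a choice made after seeing the data. It removes the highest Fgf15 values of Halo-NLS and both budding conditions, so larger differences follow from the choice and its p-values are no independent test. The differences from Halo-NLS were then 4.81 in SOX9-mEGFP_spheroid (adjusted p = 0.0016) and 4.32 in SOX9-Halo_spheroid (adjusted p = 0.0026). The differences from budding organoids were then 2.93 in the SOX9-mEGFP line (adjusted p = 0.0087) and 3.29 in the SOX9-Halo line (adjusted p = 0.0043), in place of 1.69 and 0.93. DESeq2, with all libraries, called the difference between SOX9-mEGFP_spheroid and Halo-NLS (3.00, adjusted p = 0.0085). Without the low-count filter, Fgf15 was called in SOX9-mEGFP_spheroid (3.14, adjusted p = 1.8e-08) and SOX9-Halo_spheroid (2.36, adjusted p = 6.5e-05) against Halo-NLS, and against SOX9-mEGFP_budding in the former (1.68, adjusted p = 0.0026).

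Libraries numbered 3 of Halo-NLS and the budding conditions also differed from libraries 1 and 2 in Nr1h4, enterocyte markers and measures of the library. Nr1h4 was lowest in library 3 of Halo-NLS, of both budding conditions and of SOX9-mEGFP_spheroid, and the 11 enterocyte markers summed to 5100 CPM in Halo-NLS library 3 against 9522 and 8911 CPM in libraries 1 and 2. They summed to 2214 CPM in SOX9-mEGFP_budding library 3 (8095 and 5941 CPM in the others) and 4616 CPM in SOX9-Halo_budding library 3 (6957 and 5689 CPM). Halo-NLS library 3 had counts on 40375 genes, against 29003 and 24214 in libraries 1 and 2, and 5.72% of reads on no gene, against 2.93 and 1.83%. Reads on no gene also made up the largest share in library 3 of both budding conditions, with 4.51% in SOX9-mEGFP_budding and 4.67% in SOX9-Halo_budding. The part of these differences in the values of Fgf15 was not tested.

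**Figure D2:**
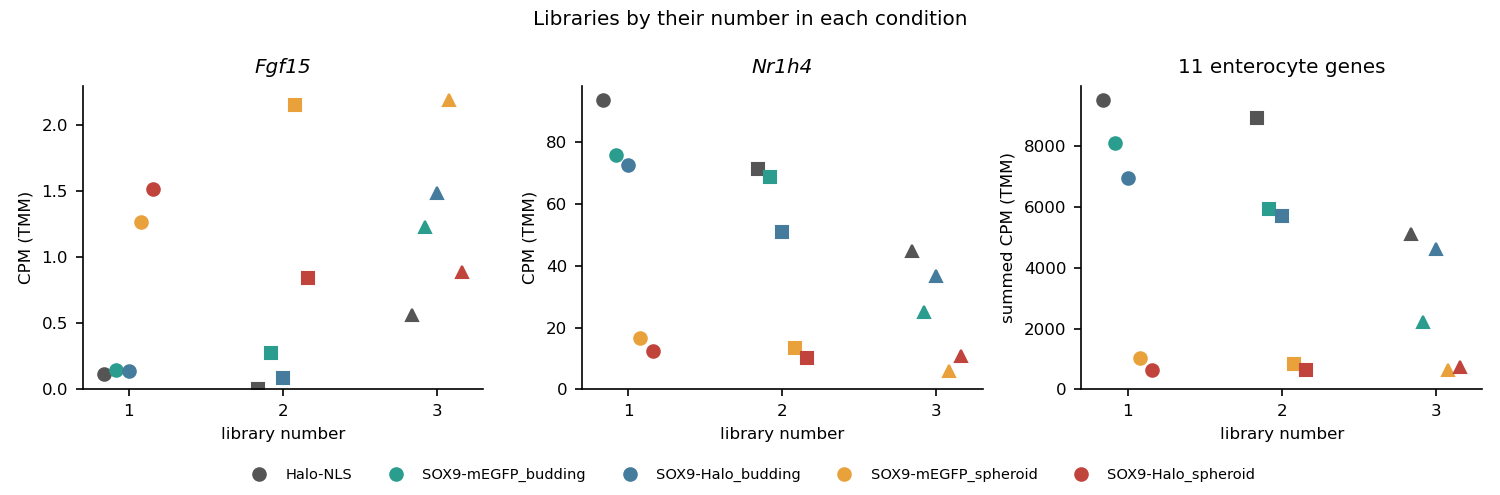
Fgf15, Nr1h4 (CPM) and the sum of 11 enterocyte genes (CPM) in each library, by library number, with colours for the 5 conditions. In Halo-NLS and both budding conditions, library 3 had the highest Fgf15 (0.562 to 1.48 CPM) and the lowest Nr1h4 (24.9 to 44.9 CPM).

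**Figure D3:**
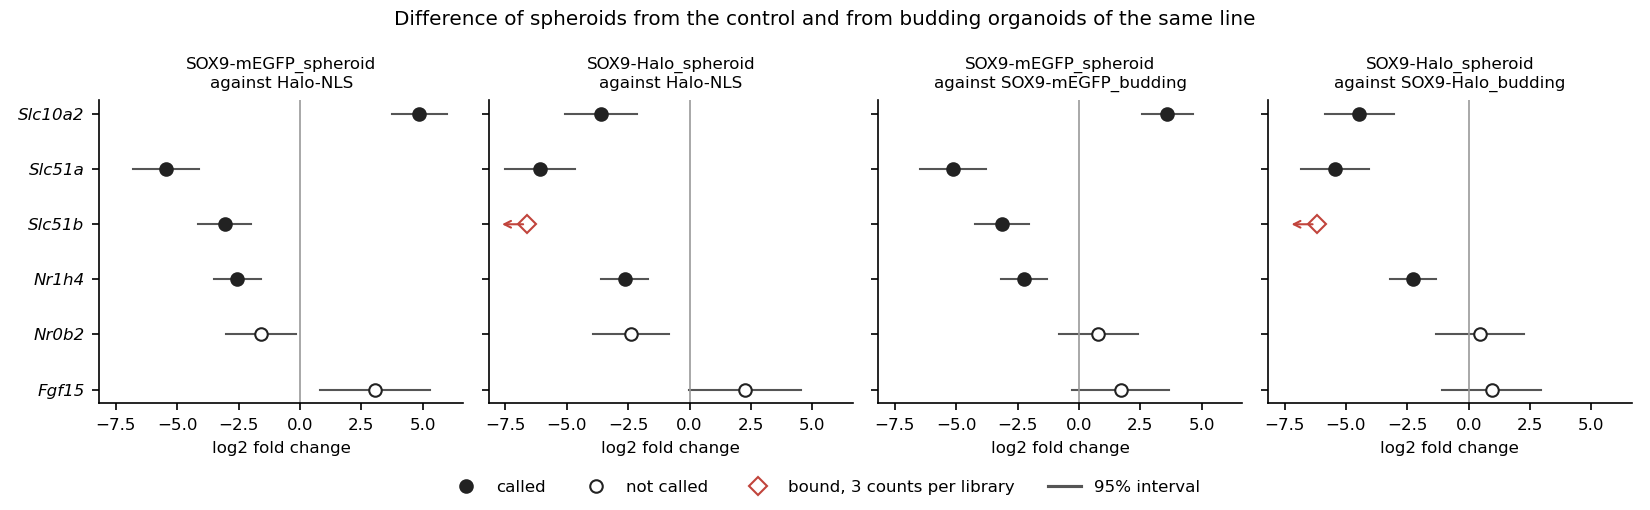
Log2 fold change of the 6 tested genes in spheroids against Halo-NLS and against budding organoids with the same fusion, with 95% intervals; filled circles were called, and diamonds with arrows are the smallest fall of Slc51b that a floor of 3 counts per library allows. Slc10a2 is on the right of 0 in SOX9-mEGFP_spheroid and on the left in SOX9-Halo_spheroid, and Slc51a and Nr1h4 are on the left in all 4 comparisons.

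Per kilobase of exon, which allows genes to be compared, Nr1h4 led in Halo-NLS with 14.5 ± 5.1 CPM per kb (SD, n = 3), before Slc51b with 8.24 ± 1.6 and Slc51a with 6.56 ± 0.81. Slc51a and Slc51b overlapped in their spread, and Slc10a2 had 0.184 ± 0.032 CPM per kb in the same organoids. The lengths include exonic bases shared with antisense genes, where reads were not counted (25.2% in Slc51a, 24.9% in Fgf15, 8.50% in Slc51b). Values per kb of these genes are therefore understated, and the order of Slc51b and Slc51a is not settled. In SOX9-mEGFP_spheroid Slc10a2 led with 5.36 ± 2.8 CPM per kb, before Nr1h4 with 2.47 ± 1.1 and Slc51b with 0.979 ± 0.50, while Slc51a had 0.147 ± 0.13. SOX9-Halo_spheroid had 2.30 ± 0.26 CPM per kb of Nr1h4 and 0.354 ± 0.12 of Fgf15, while Slc51a and Nr0b2 had 0.0940 ± 0.037 and 0.0902 ± 0.047. Summed over the 7 genes, Halo-NLS libraries had 76.0 to 132.0 CPM, SOX9-mEGFP_spheroid libraries 18.8 to 49.4 CPM and SOX9-Halo_spheroid libraries 11.6 to 14.7 CPM.

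Along the order of condition means, Slc10a2 had called steps from SOX9-mEGFP_spheroid to SOX9-mEGFP_budding and from Halo-NLS to SOX9-Halo_spheroid, with SOX9-mEGFP_budding, SOX9-Halo_budding and Halo-NLS between them not distinguished step by step. For Nr1h4 and Slc51a, Halo-NLS was highest, before SOX9-mEGFP_budding and SOX9-Halo_budding, and then SOX9-mEGFP_spheroid and, last, SOX9-Halo_spheroid. Of these steps only that from SOX9-Halo_budding to SOX9-mEGFP_spheroid was called, in a comparison with 18% of all genes called (8.32% lower and 9.68% higher). Slc51b had SOX9-mEGFP_budding at the top (9.33 ± 5.3 CPM against 8.82 ± 1.7 in Halo-NLS), and its last step, between the spheroids, was called too. No step was called for Nr0b2 or Fgf15.

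The shift between budding and spheroid cultures was compared across lines as an interaction, in which 2 members were called, both negative, where 7.39% of all genes were called and 5.58% were negative. Slc10a2 rose in the SOX9-mEGFP line and fell in the SOX9-Halo line, and the change in the SOX9-Halo line minus that in the SOX9-mEGFP line was -8.05 on the log2 scale (SE 0.81, adjusted p = 8.6e-06). Slc51b fell in both lines, further in the SOX9-Halo line, where it reached 0 counts (interaction adjusted p = 0.0015). The interaction was -0.02 for Nr1h4 (95% interval -1.30 to 1.26) and -0.32 for Slc51a (95% interval -2.06 to 1.42), so that no difference was detected for these. For Nr0b2 it was -0.32 (95% interval -2.76 to 2.13) and for Fgf15 -0.76 (95% interval -3.55 to 2.04).

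Other genes of the pathway were examined as lists. For comparison, 28.9% of all genes were called in SOX9-Halo_spheroid against Halo-NLS (15.3% lower) and 27.5% in SOX9-mEGFP_spheroid (12.1% lower). Of 9 other transporters that carry bile acids, 5 were tested, and in either spheroid condition against Halo-NLS 3 were called lower and 1 higher. Abcc2 (MRP2), an apical export pump, had 349.6 ± 196 CPM in Halo-NLS, 86.9 ± 23 CPM in SOX9-mEGFP_spheroid and 0.581 ± 0.45 CPM in SOX9-Halo_spheroid (log2 fold changes -2.01 and -9.20, adjusted p = 0.0020 and 3.0e-08). Slco2b1, an uptake transporter, fell by 7.07 (adjusted p = 1.5e-06) and fell by 9.50 (adjusted p = 2.1e-07). Abcc3 (MRP3), a basolateral pump that can export bile acids beside the OSTα-OSTβ heteromer, was not called (0.82 and 0.11, adjusted p = 0.13 and 0.85). The gene that rose was Abcc4 (MRP4), another basolateral pump, with 7.20 CPM in Halo-NLS, 53.1 CPM in SOX9-mEGFP_spheroid and 64.5 CPM in SOX9-Halo_spheroid (log2 fold changes 2.88 and 3.16). It was named after its values were seen. The transporters that are mainly hepatic, Slc10a1, Abcb11, Slco1a1 and Slco1b2, had at most 0.23 CPM as condition means and were not tested.

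Among 11 partners of FXR and other receptors for bile acids or sterols, 9 were tested, and 5 were called lower in each spheroid condition against Halo-NLS, with 1 higher in SOX9-Halo_spheroid. Vdr, the vitamin D receptor, which also binds lithocholic acid, fell by 4.46 in SOX9-mEGFP_spheroid (adjusted p = 3.8e-07) and by 3.69 in SOX9-Halo_spheroid (adjusted p = 7.5e-07) on the log2 scale. Rxra, the heterodimer partner of FXR, fell by 1.89 in SOX9-mEGFP_spheroid (adjusted p = 4.2e-04), and was not called in SOX9-Halo_spheroid (-1.02, adjusted p = 0.020). Nr1h2 (LXRβ) was called in neither (-0.76 and -0.69). Of the 8 transcription factors of the absorptive epithelium, 5 were called lower in each spheroid condition and 1 was called higher in SOX9-Halo_spheroid. Hnf4a fell by 1.36 in SOX9-mEGFP_spheroid and fell by 4.61 in SOX9-Halo_spheroid (adjusted p = 3.7e-04 and 9.2e-09), and Cdx2 had log2 fold changes of -2.51 and -7.35 (adjusted p = 1.7e-06 and 8.5e-10). Gata4 fell by 1.63 in SOX9-mEGFP_spheroid (adjusted p = 1.4e-04) and was not called in SOX9-Halo_spheroid (-0.73, adjusted p = 0.027).

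Of the 3 genes that work with FGF15, Fgfr4, its receptor, had 3.66 ± 2.4 CPM (SD, n = 3) in Halo-NLS, 48.4 ± 3.9 CPM in SOX9-mEGFP_budding, 41.0 ± 9.2 CPM in SOX9-Halo_budding, 111.7 ± 11 CPM in SOX9-mEGFP_spheroid and 9.73 ± 2.4 CPM in SOX9-Halo_spheroid. It was called higher than in Halo-NLS in all 4 conditions, by log2 fold changes of 3.72, 3.48, 4.93 and 1.41 (adjusted p = 8.2e-05, 2.3e-04, 7.0e-07 and 0.0076). Klb, the coreceptor β-Klotho, was low, with condition means from 0.094 CPM in SOX9-Halo_spheroid to 3.61 CPM in SOX9-mEGFP_budding. It rose in both budding conditions (2.23 and 1.65, adjusted p = 0.0011 and 0.0072) and fell in SOX9-Halo_spheroid (by 2.92, adjusted p = 6.4e-05). Malrd1, whose product promotes FGF15 production, had 18.5 ± 19 CPM in Halo-NLS, 15.4 ± 8.1 CPM in SOX9-mEGFP_spheroid and 0.039 ± 0.013 CPM in SOX9-Halo_spheroid. Its means were 63.0 CPM in SOX9-mEGFP_budding and 74.3 CPM in SOX9-Halo_budding. Against Halo-NLS, Malrd1 was called only in SOX9-Halo_spheroid (log2 fold change -8.74). All 3 genes differed between lines in the change from budding to spheroid, with interactions of -3.28, -2.57 and -8.72 (adjusted p = 6.7e-04, 0.0042 and 6.1e-05). Of all genes, 7.39% were called in the interaction and 5.58% were negative.

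Of 15 genes of bile acid synthesis and conjugation, 10 were tested. In SOX9-Halo_spheroid against Halo-NLS 2 were called higher and 2 lower, where 28.9% of all genes were called. In SOX9-mEGFP_spheroid 4 were called higher and 2 lower, where 27.5% of all genes were called. Acox2, a peroxisomal oxidase that shortens the side chain, rose by 1.33 in SOX9-mEGFP_spheroid (adjusted p = 0.0018), whereas Scp2 and Hsd17b4, the other most abundant genes of the list, were called in neither. Cyp7a1, the rate-limiting enzyme of the liver, and Cyp8b1 were not tested and had at most 0.075 CPM as condition means.

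Genes of both regions of the small intestine fell. Among 5 further genes of the distal small intestine, 4 were called lower in each spheroid condition, and among 10 of the proximal small intestine 9 in SOX9-Halo_spheroid and 6 in SOX9-mEGFP_spheroid, where 1 was called higher. Amn (amnionless), needed for vitamin B12 uptake, fell from 169.7 ± 12 CPM in Halo-NLS to 5.24 ± 2.4 CPM in SOX9-mEGFP_spheroid and 0.342 ± 0.20 CPM in SOX9-Halo_spheroid. Nts, the neurotensin gene, was called lower in both, with 0 CPM in SOX9-Halo_spheroid. Fabp1, the fatty acid binding protein of the proximal gut, fell from 2867 ± 1044 CPM to 39.4 ± 33 and 1.26 ± 0.62 CPM, and the lipid and retinol carriers Apoa4 and Rbp2 were called lower in both spheroid conditions as well. In Halo-NLS organoids, the summed CPM of the 10 proximal genes was 4249 to 6582, and that of the 5 distal genes 164.5 to 186.6. Of the 11 enterocyte markers, 9 were called lower in SOX9-mEGFP_spheroid and 10 in SOX9-Halo_spheroid, among them Slc5a1, Sis and Mttp in both. In the budding conditions against Halo-NLS, no enterocyte marker, transcription factor, other receptor or other transporter of these lists was called. Of the distal genes, Cubn was called lower in both budding conditions (-2.25 in SOX9-mEGFP_budding and -2.16 in SOX9-Halo_budding) and Pyy higher in SOX9-mEGFP_budding (3.09), and of the proximal genes Cybrd1 was called higher in SOX9-Halo_budding (5.52).

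**Figure D4:**
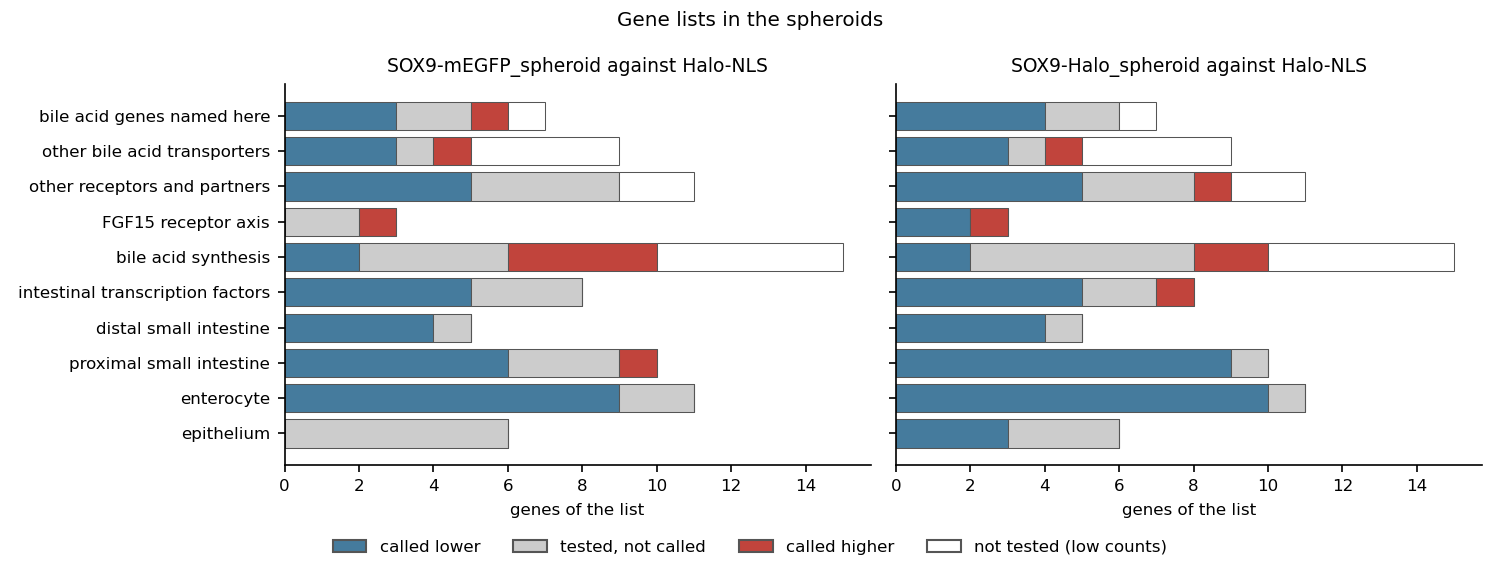
Number of genes in each list that were called lower, called higher, tested but not called, or not tested for low counts, in the spheroid conditions against Halo-NLS. Lower calls made up 9 of 11 enterocyte genes in SOX9-mEGFP_spheroid and 10 of 11 in SOX9-Halo_spheroid, and 3 and 4 of the 6 tested members.

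The genes whose log2 CPM followed each member most closely over the 15 libraries were sought among 12611 genes, as a description in which all points share the 5 conditions. Slc10a2 was closest to Fgl1 (Pearson r = 0.977), Itpripl2 (0.973) and Akr1b10 (0.967), which were all highest in SOX9-mEGFP_spheroid and lowest in SOX9-Halo_spheroid. Nr1h4 was closest to Decr1 (0.987), a mitochondrial enzyme of fatty acid oxidation, Maoa (0.983) and Fbxo25 (0.975). For Slc51a these were Tubal3 (0.991), Tmem86b (0.989) and the zinc transporter gene Slc39a5 (0.989), and for Slc51b Btnl6 (0.996), Ms4a18 (0.995) and Spink1 (0.994). Fgf15 was closest to Pvt1 (0.914), Bicd1 (0.908) and Ccdc141 (0.908), and Nr0b2 less closely to Idh2 (0.829), Tle6 (0.810) and Trim27 (0.808). Among the members, Nr1h4 correlated with Slc51a (0.961) and Slc51b (0.856), both subunits with each other (0.898), and Fgf15 with Nr1h4 inversely (-0.824). The correlation of Slc10a2 was highest with Slc51b (0.407), with 0.244 for Fgf15, -0.0019 for Nr0b2, -0.02 for Slc51a and -0.03 for Nr1h4.

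Tested genes within 500 kb of a member were examined on either side. Against Halo-NLS, 28.9% of all genes were called in SOX9-Halo_spheroid, 15.3% lower and the rest higher. In SOX9-mEGFP_spheroid 27.5% were called, 12.1% lower and 15.3% higher. Around Slc10a2, 0 of 4 were called in either spheroid condition against Halo-NLS, with medians of 0.05 in SOX9-Halo_spheroid and -0.09 in SOX9-mEGFP_spheroid on the log2 scale. Around Slc51a, 6 of 21 were called in SOX9-Halo_spheroid and 8 of 21 in SOX9-mEGFP_spheroid, and around Slc51b 4 and 6 of 20. Around Nr1h4, which fell, 2 and 3 of the 5 tested neighbours were called higher and none lower. Of the 14 tested neighbours of Fgf15, 5 were called higher and none lower in SOX9-Halo_spheroid, and 4 higher and 1 lower in SOX9-mEGFP_spheroid.

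Reads were counted without regard to strand, and reads on exons of 2 genes were not counted. Exons of Slc51a share 25.2% of their bases with the antisense gene Pcyt1a, an abundant gene with 37.3 to 172.7 CPM, and those of Fgf15 share 24.9% with Gm26793. For Slc51b the share with Rasl12 was 8.50%, and Slc10a2 shares no exonic base with Gm63921, which overlaps it outside its exons. Rasl12 had 76 counts in Halo-NLS, 69 and 71 in the budding conditions, 19 in SOX9-mEGFP_spheroid and 0 in SOX9-Halo_spheroid. Gm26793 had 12 counts in Halo-NLS, 14 and 16 in the budding conditions, 74 in SOX9-mEGFP_spheroid and 84 in SOX9-Halo_spheroid. Reads of a gene and its antisense partner cannot be told apart in the bases they share.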

How the data were processed

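RNA-seq was performed on 15 libraries of mouse organoids, 3 in each of 5 conditions, and grouped by their labels. According to the study's methods and processing notes, the authors trimmed paired-end poly-A reads with cutadapt 4.5, aligned them to GRCm39 (mm39) with STAR and assigned unique alignments to genes with HTSeq 2.0.2 in union mode without strand. The deposited counts are raw reads per gene. Normalized counts and tables of the authors' own comparisons (fold changes and p-values) were not used. Reads assigned to no gene (1.83 to 6.09%) or to several genes (9.65 to 13.6%) were left out of library sizes.

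Counts were analysed with edgeR 4.0.16 in R 4.3.3. Genes with low counts were filtered by condition, which left 17560, TMM factors were computed, and all 15 libraries entered a single quasi-likelihood fit with a term for each condition and a shared estimate of the spread. Calls needed an adjusted p (Benjamini-Hochberg) not above 0.01, a 2-fold difference or more and 10 or more normalized counts on average. Standard errors were derived from the F statistic. A prior count of 2 was used for log2 CPM only, and fitted fold changes used the default prior count of edgeR. CPM per kb used exon-union lengths of the GRCm39 annotation. Tables and plots were made with Python 3.11.15, and the fit was tested on simulated counts. The members, the lists and their tests were chosen with earlier results of these data known. The rule for naming genes took the 3 most abundant of each list and, for each member, the 3 with the highest correlation, and not all of the former are printed. Abcc4, Anpep, Cubn, Pyy, Cybrd1, Col3a1, Ptprc, Cdh5, Kdr and the untested hepatic genes are outside this rule and were named after their values were seen. Alternatives were DESeq2 1.42.0, library sizes alone, no low-count filter, an adjusted p of 0.05, only the libraries compared, a replicate block and each library left out in turn. All comparisons against Halo-NLS share its 3 libraries. Same-numbered libraries deviated together with r over 0.1 in every pair (0.372, 0.214 and 0.313) for SOX9-Halo_spheroid and SOX9-Halo_budding. In no other pair of conditions did r exceed 0.1 for all 3 numbers, but some single numbers were higher. SOX9-Halo_budding and Halo-NLS had 0.453, 0.776 and 0.0009 for numbers 1, 2 and 3. SOX9-Halo_budding and SOX9-mEGFP_budding had 0.050, 0.325 and 0.709. Others were negative, as -0.298 for number 2 of SOX9-mEGFP_spheroid and Halo-NLS. Shared structure between same-numbered libraries is thus not limited to a single pair of conditions.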

Additional observations from a re-analysis of the deposited data

Results flagged for a closer look

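Slc10a2 and Slc51b stood out because both lines changed unequally between budding and spheroid cultures, in a test of the difference itself. For Slc10a2 the change in the SOX9-Halo line minus that in the SOX9-mEGFP line was -8.05 on the log2 scale (adjusted p = 8.6e-06), with all 3 SOX9-mEGFP_spheroid libraries above and all 3 SOX9-Halo_spheroid libraries below the budding organoids of their line. For Slc51b it was -7.64 (adjusted p = 0.0015), a fitted value that depends on the default prior count of edgeR, since the 3 SOX9-Halo_spheroid libraries had 0 counts. Shape, second transgene and time in culture cannot be told apart in either line, nor line, second transgene and time in culture between the spheroids.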

How the results depend on the processing

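No call of a bile acid gene was lost and none turned direction under the alternatives run. The count of called members rose from 0 to 1 (Nr0b2) in SOX9-Halo_budding against Halo-NLS without the low-count filter, with DESeq2 and at an adjusted p of 0.05, and ranged from 0 to 1 with each library left out, the 1 being without Halo-NLS library 1. In SOX9-mEGFP_budding against Halo-NLS it rose to 1 (Nr0b2) without the filter and at an adjusted p of 0.05. In SOX9-Halo_spheroid against Halo-NLS 4 members became 6 without the filter (Nr0b2 and Fgf15), 5 with DESeq2, with only the libraries compared and at an adjusted p of 0.05 (Nr0b2), 5 without libraries numbered 3 (Fgf15) and 4 to 5 with a library left out. In SOX9-mEGFP_spheroid against Halo-NLS 4 became 5 (Fgf15) without the filter, with DESeq2, with the block, at an adjusted p of 0.05 and without libraries numbered 3. Calls of Fgf15 without libraries numbered 3 follow a choice made after its values were seen. With the replicate block, Fgf15 was called in SOX9-mEGFP_spheroid against Halo-NLS (3.48, adjusted p = 0.0049), and the block left the 4 calls of SOX9-Halo_spheroid against SOX9-Halo_budding in place. Over all genes, SOX9-Halo_budding against Halo-NLS gave 659 calls, but 2357 without the filter, 1695 with DESeq2, 1177 with library sizes alone, 22 with only the libraries compared, 83 without libraries numbered 3 and 201 to 2387 with a library left out. SOX9-mEGFP_budding against Halo-NLS gave 484, but 1991, 1281, 728, 113, 155 and 221 to 2198 in the same order. Between the budding conditions 80 calls became 280, 217 and 26 without the filter, with DESeq2 and with only the libraries compared, 28 without libraries numbered 3 and as few as 44 with a library left out. The 1297 interaction calls became 721 without libraries numbered 3. The cause was not tested. Fabp6, which could be tested only without the filter, was called in 0 comparisons. Depth limits Fabp6, Nr0b2 and Fgf15, which had at most 77 counts in any library.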
